A study of Homo sapiens with 21 samples.

Results

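The cell line engineered to overexpress SRSF3 was set directly against the line engineered to overexpress SRSF7, each represented by 3 RNA-seq libraries (SRSF3-OE and SRSF7-OE). These were all the libraries labelled with either factor alone, 6 of the 21 in the series, and every gene of their count table was considered. All were of HCC1806, an established human triple-negative breast cancer line, grown in plastic dishes in DMEM with serum. The genotype labels read SRSF3 OE and SRSF7 OE, and the same table holds 3 libraries of a single plasmid control (1xCtrl) and 3 of a line labelled SRSF2 OE (SRSF2-OE), which are used below for levels only. The promoter driving each factor, and whether a line is a pool or a clone, are not given in the sources used here. The labels number the libraries of a line 1 to 3 but do not say that they came from separate cultures, so the p-values measure the spread between these libraries, which may be technical.

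SRSF3 and SRSF7 are SR proteins, RNA-binding proteins with a domain rich in arginine and serine that choose exons during pre-mRNA splicing. Both also carry mature mRNA to the export receptor NXF1 and take part in the choice of polyadenylation sites. SRSF7 has a zinc knuckle that SRSF3 lacks, and each factor limits its own mRNA through a poison exon that sends the transcript to nonsense-mediated decay. A count per gene, as used here, does not separate the plasmid's transcript from that of the chromosome or a coding transcript from a decayed one.

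The library totals lay between 193500720 and 234276231 counts in SRSF3-OE and between 234337058 and 303323552 in SRSF7-OE. Counts of replicates differed by more than sampling noise (a chi-square of 35.5 to 80.0 for each degree of freedom over genes), and their log2 levels correlated across genes with Pearson's r from 0.984 to 0.988, genes not being independent replicates. On the first principal component, which held 50.8% of the variance, the SRSF3-OE libraries lay on one side and the SRSF7-OE libraries on the other. The keratins, EPCAM and TP63 marked all 6 libraries as epithelial. ESR1 was low (6.65 ± 0.232 CPM in SRSF3-OE and 10.6 ± 0.664 in SRSF7-OE, where CPM is the count divided by the scaled library size in mega-counts, here with its SD, n = 3) and PGR had at most 6 counts in a library. Of 5 leukocyte, 4 endothelial and 5 erythroid markers, 7 were too low to test, HBB and ALAS2 being at 0 in every library. The summed leukocyte markers were at 28.6 to 32.3 CPM in SRSF3-OE and 20.7 to 25 in SRSF7-OE, nearly all of it CD68, and the summed endothelial and erythroid markers stayed below 1 CPM in each library. The summed fibroblast markers were at 14.8 to 16.3 CPM in SRSF3-OE and 20.6 to 24.4 in SRSF7-OE, most of it COL1A1 and LUM.

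The overexpressed genes were examined first. SRSF3 (ENSG00000112081.17, chromosome 6 from 36594353 to 36605600 in GENCODE release 29, GRCh38) measured 536, 504 and 510.4 CPM in SRSF3-OE replicates 1 to 3 and 388, 406 and 393 CPM in SRSF7-OE. All 3 libraries labelled SRSF3-OE were above all 3 labelled SRSF7-OE, by 0.38 on the log2 scale (SE 0.0527, edgeR's quasi-likelihood F test, adjusted p = 0.000299 after Benjamini and Hochberg, as for every edgeR adjusted p below). SRSF7 (ENSG00000115875.19, chromosome 2 from 38743599 to 38751494) measured 371, 371 and 383 CPM in SRSF3-OE and 436, 435 and 431 CPM in SRSF7-OE. It was higher in every SRSF7-OE library, with a log2 difference, taken throughout as SRSF3-OE minus SRSF7-OE, of -0.21 (SE 0.0485, edgeR adjusted p = 0.00612). Both genes therefore followed the labels, with differences of 1.31-fold and 1.16-fold. These compare the lines with each other, and no test against 1xCtrl was made, so they do not measure overexpression. SRSF2, which neither line was made to overexpress, also differed. It measured 445, 449 and 425 CPM in SRSF3-OE and 334, 345 and 340.0 CPM in SRSF7-OE (log2 difference 0.37, SE 0.0507, edgeR adjusted p = 0.000287). With all 12 libraries of the table on one scale, SRSF2 was at 444 ± 31.4 CPM in 1xCtrl, 447 ± 15.7 in SRSF3-OE and 340.4 ± 8.94 in SRSF7-OE, so the SRSF7-OE line was the one below the control mean. SRSF2 and MFSD11, which lies on the other strand, have 1106 exon bases in common, and the strand setting of the counting is not given in the sources used here. MYC did not pass the threshold between the lines (157 ± 4.57 CPM in SRSF3-OE and 161 ± 6.48 in SRSF7-OE, edgeR adjusted p = 0.6).

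Over the genome the lines differed widely. Of 22926 genes tested, 9801 passed an edgeR adjusted p of 0.05, which is 42.8%: 4589 were higher in SRSF3-OE (20.0% of genes tested) and 5212 were higher in SRSF7-OE (22.7%). The split of the calls depended on the scaling: 46.8% were higher in SRSF3-OE with TMM scaling and 34.8% with total counts alone. Most differences were small, with a median absolute log2 difference of 0.50 among called genes. A difference of at least 2-fold was found in 2108 called genes (9.19%), of which 547 were higher in SRSF3-OE (2.39%) and 1561 higher in SRSF7-OE (6.81%). Among the 11460 genes with a mean of at least 5 CPM, 6478 were called (56.5%), 31.3% higher in SRSF3-OE and 25.2% higher in SRSF7-OE. At that level 100 genes were at least 2-fold higher in SRSF3-OE and 273 in SRSF7-OE. The CPM values of the 3 SRSF3-OE and the 3 SRSF7-OE libraries did not overlap for 12528 genes (54.6% of those tested).

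**Figure D1:**
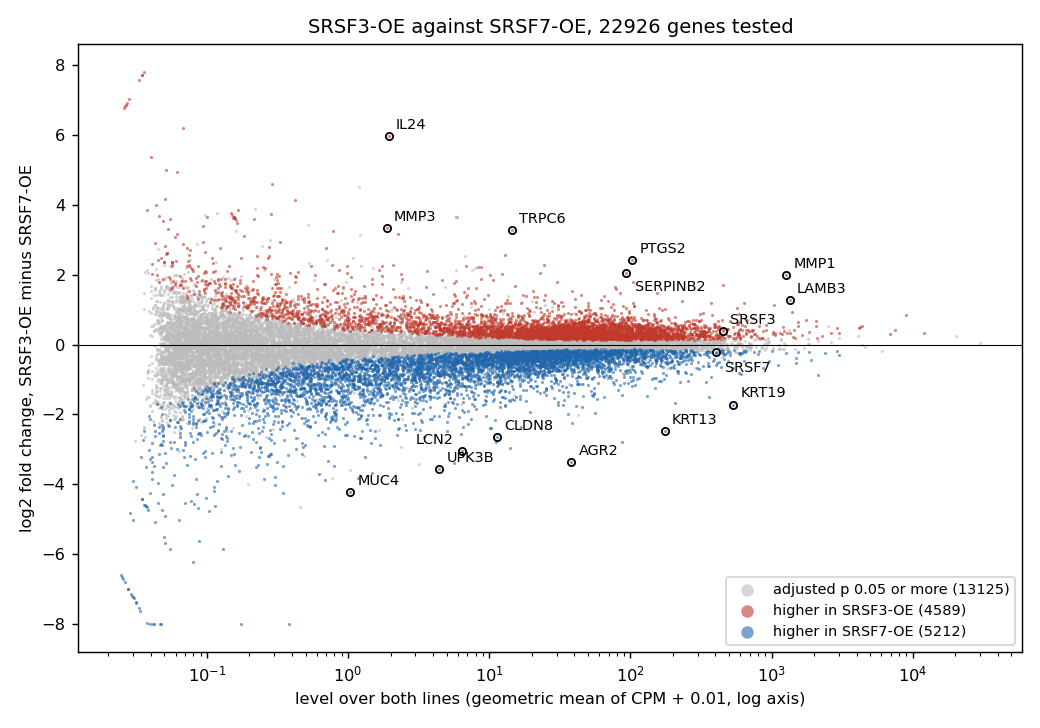
Each point is one of the 22926 genes tested, with its level over both lines (geometric mean of CPM + 0.01, log axis) on the horizontal axis and its log2 fold change, SRSF3-OE minus SRSF7-OE, on the vertical axis, values beyond 8 in size being drawn at that limit. Red points (4589) were higher in SRSF3-OE and blue points (5212) higher in SRSF7-OE at an edgeR adjusted p under 0.05; the circled genes are described in the text.

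The differences moved with the base composition of the transcripts. Median log2 differences ran from 0.11 in the lowest decile of genes by GC content to -0.36 in the highest decile, where 66 genes were higher in SRSF3-OE and 584 higher in SRSF7-OE. Single libraries differed in this respect within a line as well. The highest decile minus the lowest decile, as deviations from the mean of the table's libraries, came to -0.38, -0.20 and -0.17 on the log2 scale in SRSF3-OE and to 0.27, -0.10 and 0.41 in SRSF7-OE. In 1xCtrl the same quantity ranged from -0.52 to 0.77. With each library's GC trend removed, 10381 genes were called, 5292 higher in SRSF3-OE and 5089 higher in SRSF7-OE. The part of GC content in the differences between the lines was not tested. Beside the counts of each gene list below, those with the trend removed are given in brackets, in the same order, where they differ. Counts that moved by more than 1.5 times under another of the alternatives, or whose balance turned, are given with them.

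**Figure D2:**
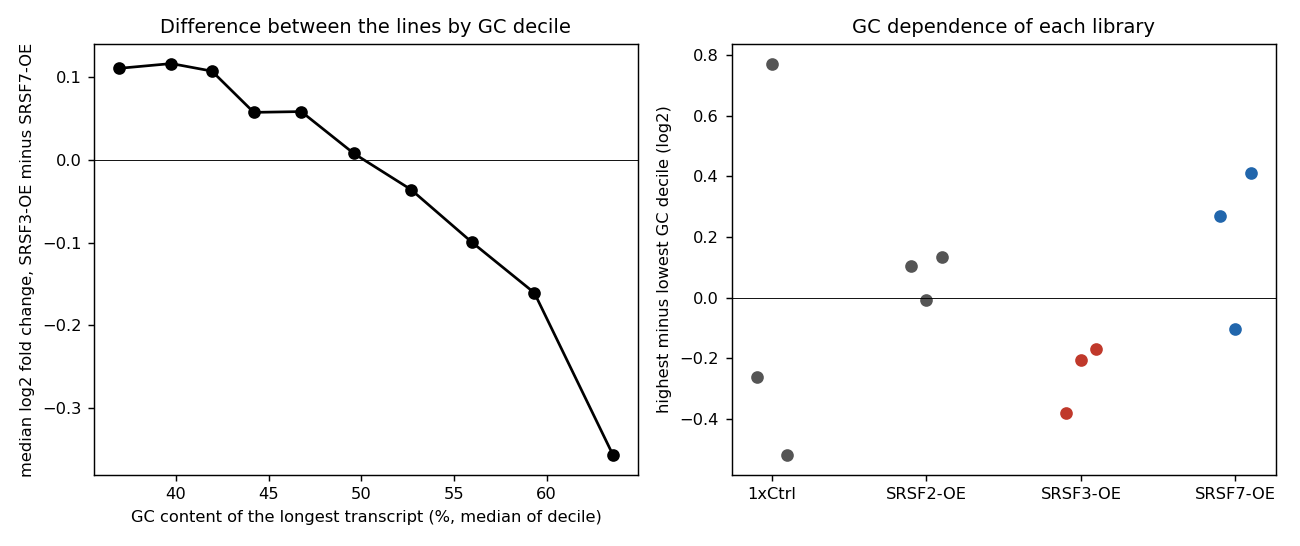
Left, the median log2 fold change (SRSF3-OE minus SRSF7-OE) in 10 groups of genes ordered by the GC content of the longest transcript, which falls from 0.11 to -0.36. Right, each library's log2 deviation in the highest minus the lowest of these groups, 1 point per library: the 3 SRSF3-OE points lie below 0, and 2 of the 3 SRSF7-OE points lie above it.

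The gene with the largest difference at 5 CPM or more was IL24 (ENSG00000162892.16, chromosome 1 from 206897443 to 206904139), a secreted cytokine of the IL-10 family. IL24 measured 15.4, 14.5 and 15.05 CPM in SRSF3-OE and 0.162, 0.251 and 0.307 CPM in SRSF7-OE. Every SRSF3-OE library stood far above every SRSF7-OE library, 61.7-fold on average (log2 difference 5.95, SE 0.203, edgeR adjusted p = 4.83e-07). In 1xCtrl it was at 0.849 ± 0.0765 CPM on the scale of the 12 libraries, between the lines, and in SRSF2-OE at 1.15 ± 0.212. TRPC6, a cation channel that lets calcium in, measured 48.8, 41.7 and 44.5 CPM in SRSF3-OE and 4.72, 5.21 and 4.01 CPM in SRSF7-OE (9.69-fold, log2 difference 3.28, SE 0.107, edgeR adjusted p = 1.9e-07). Its control level, 6.32 ± 0.705 CPM, was nearer to that of SRSF7-OE. PTGS2, the inducible cyclooxygenase of prostaglandin synthesis, measured 266, 221 and 226 CPM in SRSF3-OE and 43.8, 45.5 and 44.1 in SRSF7-OE (5.35-fold, edgeR adjusted p = 1.06e-07). The control lay between the lines at 77.1 ± 10.8 CPM.

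Secreted proteases and a protease inhibitor were prominent among the genes higher in SRSF3-OE. MMP1, the interstitial collagenase, measured 2702, 2419 and 2467 CPM in SRSF3-OE and 629, 675 and 603 CPM in SRSF7-OE (3.98-fold, log2 difference 1.99, SE 0.0727, edgeR adjusted p = 1.81e-07). Its neighbour MMP3, stromelysin 1, measured 6.42, 5.64 and 5.65 CPM against 0.586, 0.584 and 0.598 CPM (log2 difference 3.32, edgeR adjusted p = 1.46e-07). SERPINB2, an inhibitor of plasminogen activators, was at 189 ± 12.6 CPM in SRSF3-OE and 45.8 ± 3.89 in SRSF7-OE (4.13-fold, edgeR adjusted p = 1.88e-07), although 547 of its exon bases are shared with SERPINB10 on the same strand. Other proteases went the other way: MMP2, a gelatinase, was at 11.1 ± 1.22 CPM in SRSF3-OE and 27.3 ± 1.395 in SRSF7-OE, and MMP13, a further collagenase, at 3.18 ± 0.295 and 8.54 ± 0.659 (edgeR adjusted p = 4.2e-06 and 6.66e-06). Over the whole list of matrix proteases and plasminogen activation genes, 10 of 34 were higher in SRSF3-OE and 13 in SRSF7-OE, a balance that turned to 12 and 11 with the GC trend removed, and the sign of the list's median (0.03) depended on the setting.

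The other genes that led the SRSF3-OE side were mostly membrane proteins. NPFFR2, a neuropeptide receptor, was 5.88-fold higher in SRSF3-OE, CDH11, a mesenchymal cadherin, 4.82-fold, RGS4, which curbs G protein signalling, 4.67-fold, and ABCC9, a subunit of potassium channels gated by ATP, 4.65-fold. AJAP1, a protein of adherens junctions, differed 4.14-fold, the sphingosine-1-phosphate receptor S1PR1 4.07-fold and the decoy receptor IL13RA2 3.97-fold. PNLIPRP3, the gene of carboxypeptidase M and MYH15 completed the 15 highest, at 4.78-, 3.67- and 3.62-fold. CDH11 measured 57.4, 49.7 and 52.8 CPM in SRSF3-OE and 11.3, 10.5 and 11.4 CPM in SRSF7-OE, with 25.6 ± 3.96 CPM in 1xCtrl on the scale of the 12 libraries. Among the less abundant genes, of 1 to 5 CPM, IL1RL1, the IL-33 receptor, measured 6.96, 6.67 and 6.46 CPM against 0.631, 0.728 and 0.905 CPM, and the hair follicle keratin KRT75 2.14, 2.32 and 2.58 against 0.303, 0.296 and 0.1503 (edgeR adjusted p = 4.89e-07 and 1.65e-05).

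On the other side, the genes higher in SRSF7-OE were led by products of secretory and mucosal epithelium. AGR2, a disulfide isomerase of the endoplasmic reticulum needed to make mucins, measured 12.3, 11.7 and 11.6 CPM in SRSF3-OE and 131, 126 and 108 CPM in SRSF7-OE. The groups were far apart (10.3-fold, log2 difference -3.36, SE 0.0792, edgeR adjusted p = 5.7e-08), and 1xCtrl lay between them at 76.7 ± 8.81 CPM. LCN2, an iron-scavenging lipocalin, measured 2.34, 2.16 and 2.22 CPM in SRSF3-OE and 20.6, 16.3 and 18.6 in SRSF7-OE (edgeR adjusted p = 1.29e-07). The cell surface mucin MUC4 measured 0.177, 0.246 and 0.2797 CPM in SRSF3-OE and 5.23, 3.71 and 4.14 in SRSF7-OE (18.5-fold, edgeR adjusted p = 7.34e-07). MUC20, another surface mucin, was at 5.02 ± 0.0193 CPM and 39.4 ± 4.35 CPM (edgeR adjusted p = 1.06e-07), with 1820 exon bases shared with MUC20-OT1 on the same strand. Of 20 luminal secretory genes tested, 16 were higher in SRSF7-OE and 1 was higher in SRSF3-OE, with a median log2 difference of -1.999 against -0.04 over all genes tested (17 and 1 with the GC trend removed, 15 and 0 with all 12 libraries in the fit). The list holds 7 further genes, among them trefoil factors and secretoglobins, whose counts were at most 15 in any library.

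The uroplakins, plaque proteins of the bladder surface, showed the same direction. UPK2 measured 1.99, 1.43 and 1.76 CPM in SRSF3-OE and 19.5, 15.8 and 18.9 in SRSF7-OE (edgeR adjusted p = 4.72e-07). UPK3B measured 1.23, 1.26 and 1.35 CPM in SRSF3-OE and 15.5, 10.02 and 19.96 in SRSF7-OE, where replicate 2 was the lowest (edgeR adjusted p = 0.000146). The remaining genes of the 15 lowest were of varied kinds. TMPRSS4, a membrane-bound serine protease, was 6.87-fold higher in SRSF7-OE, the stress cytokine GDF15 5.54-fold, the neurotrophin receptor NGFR 5.22-fold and the neutral amino acid carrier SLC1A4 5.15-fold. The matrix genes MXRA5, FBN2 and NPNT were 5.92-, 5.23- and 5.17-fold higher there. NGFR and NPNT share 1126 and 415 exon bases with antisense genes. On the scale of the 12 libraries, the control mean lay between the 2 lines for 14 of the 15 highest and 14 of the 15 lowest genes, the exceptions being the carboxypeptidase M gene and CLDN8. It was nearer to SRSF7-OE than to SRSF3-OE for 14 of the 15 highest and 13 of the 15 lowest. Over all 9801 called genes the control mean was between the lines for 6390, above both for 1589 and below both for 1822, as a description without a test against the control.

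**Figure D3:**
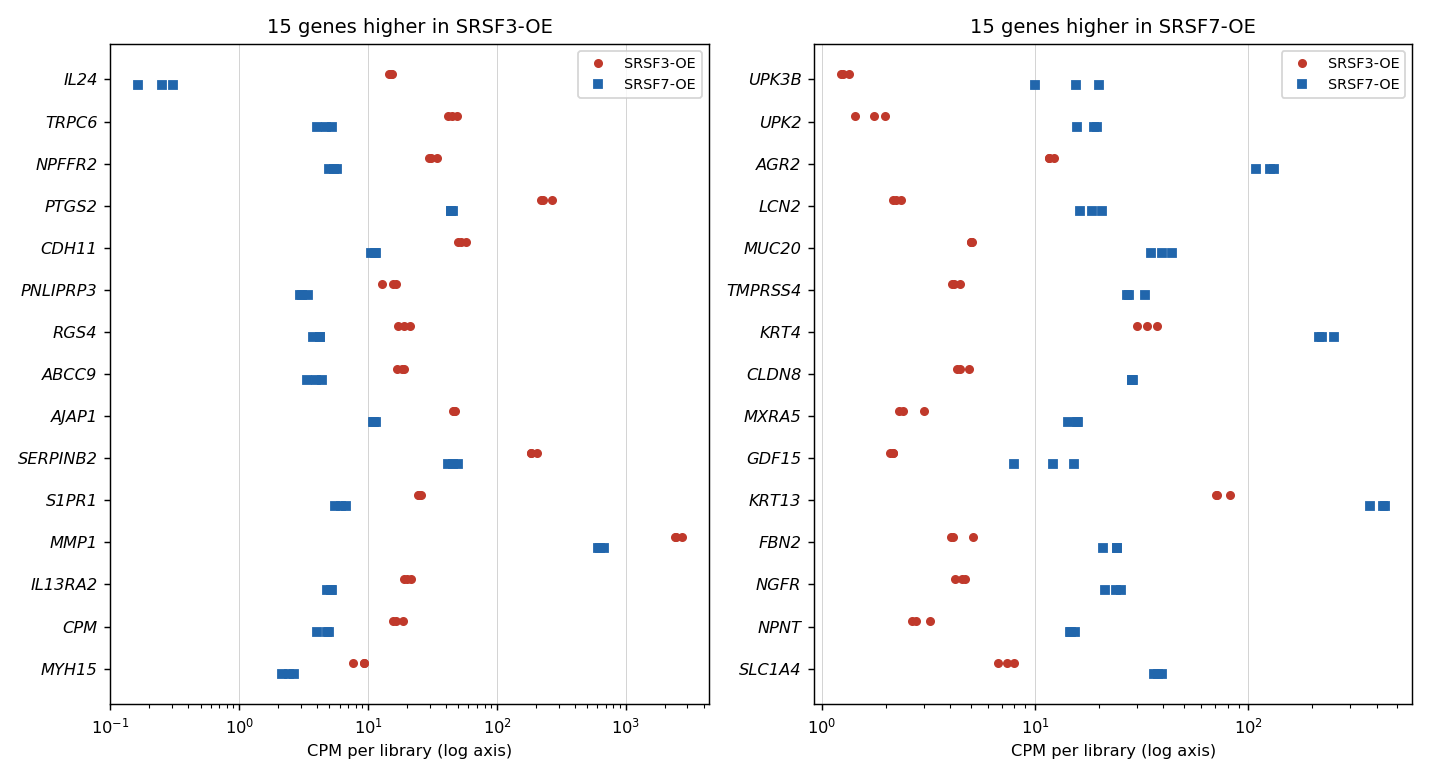
CPM of each library (log axis) for the 15 genes with the highest (left) and the 15 with the lowest (right) log2 fold change among called genes of at least 5 CPM, circles for the 3 SRSF3-OE and squares for the 3 SRSF7-OE libraries. The genes were chosen for their separation, which runs from 3.62-fold for MYH15 to 61.7-fold for IL24.

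Keratins, the intermediate filaments that mark the kind of an epithelium, divided by class. All 5 simple keratins of glandular cells were higher in SRSF7-OE. KRT19 measured 296, 266 and 324 CPM in SRSF3-OE and 986, 809 and 1125 CPM in SRSF7-OE (3.296-fold, edgeR adjusted p = 4.47e-05), and KRT8 measured 279.8, 256 and 267 and 513, 466 and 556 (1.91-fold, edgeR adjusted p = 8.76e-06). Of 8 basal keratins 4 were higher in SRSF3-OE. KRT17 measured 196, 172 and 217 CPM in SRSF3-OE and 55.6, 48.9 and 64.4 in SRSF7-OE (3.46-fold, edgeR adjusted p = 3.67e-05). KRT14 measured 983, 867 and 1047 and 427, 382 and 460.1 (2.28-fold, edgeR adjusted p = 8.89e-06), and KRT16 and KRT6A were higher too, by 0.84 and 0.54 on the log2 scale. The class was not uniform, since KRT5, the partner of KRT14, was 1.36-fold higher in SRSF7-OE and KRT15 2.75-fold (edgeR adjusted p = 0.00057 and 1.68e-06). KRT14, KRT16 and KRT17 are close in sequence, as are the KRT6 genes, so that reads could be shared among them in the counting. The mucosal keratins KRT4 and KRT13 were among the 15 lowest genes: KRT13 measured 71.1, 70.6 and 82.1 CPM in SRSF3-OE and 439, 371 and 429.6 in SRSF7-OE, and KRT4 33.5, 30.1 and 37.2 and 252, 215 and 223 (edgeR adjusted p = 1.9e-07 and 2.36e-07). They belong to a list of 33 squamous differentiation and desmosome genes, of which 8 were higher in SRSF3-OE, among them the desmosome protein DSP (1.49-fold), and 10 in SRSF7-OE. That list's median was -0.28, and with the GC trend removed it was 0.10, with 11 genes higher in each line.

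Tight junction genes were more often higher in SRSF7-OE, the direction of the simple keratins. Of 20 claudin and tight junction genes, 12 were higher in SRSF7-OE and 5 in SRSF3-OE (9 and 5 with the GC trend removed), with a median of -0.52. CLDN8, a claudin of tight, salt-absorbing epithelia, measured 4.31, 4.44 and 4.89 CPM in SRSF3-OE and 28.6, 28.6 and 28.7 CPM in SRSF7-OE (6.298-fold, edgeR adjusted p = 7.46e-08), and 1xCtrl was at 29.1 ± 3.29 CPM on the scale of the 12 libraries, close to SRSF7-OE (28.7 ± 0.393). CLDN11 and CLDN10 were 2.14- and 3.11-fold higher in SRSF7-OE, the latter sharing 1558 exon bases with DZIP1 on the opposite strand, and the scaffold TJP3 measured 0.227, 0.314 and 0.127 CPM in SRSF3-OE and 2.24, 1.803 and 2.61 in SRSF7-OE. The scaffold TJP1 and the junction protein OCLN were higher in SRSF3-OE, by 0.38 and 0.30 on the log2 scale. The sodium channel subunit SCNN1A, which works in the same kind of epithelium, measured 17.3, 19.2 and 17.9 CPM in SRSF3-OE and 76.8, 68.1 and 71.3 in SRSF7-OE (edgeR adjusted p = 1.29e-07). Among transcription factors tied to luminal breast cells, FOXA1 was at 10.1 ± 0.676 CPM in SRSF3-OE and 21.02 ± 0.553 in SRSF7-OE, and GATA3 at 19.7 ± 1.02 and 25.4 ± 2.02 (edgeR adjusted p = 4.48e-06 and 0.00264). SNAI2, a repressor linked to the basal and mesenchymal state, went the other way, with 51.5, 50.4 and 51.6 CPM in SRSF3-OE and 26.2, 28.9 and 29.2 in SRSF7-OE (edgeR adjusted p = 3.97e-06). EPCAM did not pass the threshold (648 ± 40.2 and 672 ± 21.8 CPM, edgeR adjusted p = 0.543).

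Chains of the laminin that anchors epidermal cells to the basement membrane were higher in SRSF3-OE. LAMB3 measured 2199.8, 1974 and 2089 CPM in SRSF3-OE and 907, 768 and 939 CPM in SRSF7-OE, and LAMA3 899, 737 and 825 and 406, 412 and 373. These were differences of 2.396- and 2.07-fold (edgeR adjusted p = 4.45e-06 and 8.15e-06). The collagen-binding integrin ITGA2 and the vitronectin-binding ITGB5 were higher in SRSF3-OE too, 1.85- and 1.75-fold, while LAMA4, of vessel basement membranes, was 1.395-fold higher in SRSF7-OE. In all, 10 of 25 integrin and laminin genes were higher in SRSF3-OE and 7 in SRSF7-OE, a median of 0.17 (13 and 7 with the GC trend removed). This is 68.0% called, against 56.5% among all genes of at least 5 CPM (31.3% higher in SRSF3-OE and 25.2% higher in SRSF7-OE). Matrix glycoproteins went in both directions, 10 of 28 higher in SRSF3-OE and 14 in SRSF7-OE, with a median of -0.63 (10 and 13 with the GC trend removed). CCN2, a target of YAP and TGF-beta signalling, measured 36.7, 31.4 and 31.7 CPM in SRSF3-OE and 13.04, 12.7 and 12.9 in SRSF7-OE, and the fibrillins diverged: FBN1 was 2.44-fold higher in SRSF3-OE and FBN2 5.23-fold higher in SRSF7-OE (edgeR adjusted p = 5.43e-06 and 4.88e-07). FBN2 measured 5.09, 4.12 and 4.05 CPM in SRSF3-OE and 24.3, 24.3 and 20.9 in SRSF7-OE.

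Ligands of the EGF receptor, which epithelial cells shed to stimulate their own growth, differed in both directions, 5 of 7 being higher in SRSF3-OE and 2 in SRSF7-OE. EREG measured 284, 238 and 253 CPM in SRSF3-OE and 88.4, 96.6 and 95.5 CPM in SRSF7-OE (2.76-fold, edgeR adjusted p = 7.31e-07). AREG measured 90.9, 83.6 and 87.4 and 42.7, 41.4 and 42.96 (2.06-fold, edgeR adjusted p = 7.34e-07), EPGN 26.7, 27.01 and 25.99 and 12.8, 13.3 and 12.3 (2.08-fold, edgeR adjusted p = 1.64e-06), and HBEGF and TGFA were 1.53- and 1.52-fold higher in SRSF3-OE. EGF itself went the other way, with 25.8, 23.1 and 24.2 CPM in SRSF3-OE and 29.9, 29.2 and 27.6 CPM in SRSF7-OE (log2 difference -0.25, edgeR adjusted p = 0.00918, and 0.0576 without SRSF7-OE replicate 1). So did betacellulin, BTC, which like TGFA was named after its values were seen, with 0.318, 0.3301 and 0.376 and 0.519, 0.568 and 0.573 CPM (log2 difference -0.69, edgeR adjusted p = 0.0153, and 0.0532 and 0.0542 without SRSF7-OE replicates 2 and 3). The receptor EGFR itself was 1.31-fold higher in SRSF3-OE and ERBB2 1.31-fold higher in SRSF7-OE (edgeR adjusted p = 0.00334 and 0.000372). Of the 15 receptors and ligands tested, 7 were higher in SRSF3-OE and 5 in SRSF7-OE (9 and 5 with the GC trend removed); without SRSF7-OE replicate 1, or without replicate 2, the latter number was 3. Genes that growth factor signals switch on within the hour were more often higher in SRSF3-OE than in SRSF7-OE. A link to the ligands was not tested. Among 23 AP-1 and immediate early genes, 12 were higher in SRSF3-OE and 2 in SRSF7-OE, with a median of 0.32 (15 and 1 with the GC trend removed). The 2 became 0 with RLE scaling, DESeq2, all 12 libraries in the fit or the replicate block, and when SRSF3-OE replicate 2 or 3 or SRSF7-OE replicate 1 or 3 was left out, 1 without SRSF3-OE replicate 1 and 3 without SRSF7-OE replicate 2. ATF3 measured 14.7, 13.2 and 13.98 CPM in SRSF3-OE and 4.25, 4.73 and 4.74 in SRSF7-OE, and the MAP kinase phosphatase DUSP1 13.2, 11.99 and 12.2 and 4.01, 3.704 and 4.43 (edgeR adjusted p = 9.46e-07 and 1.64e-06). FOSB and DUSP4 were higher in SRSF3-OE by 1.03 and 0.84 (log2). Not called were 9 genes of the list. They include FOS (0.15), EGR1 (-0.18), DUSP5 (0.08) and DUSP6 (-0.03), named after their values were seen. The 2 higher in SRSF7-OE were ETV4 and PHLDA1 (-0.19 and -0.17). Of 28 cytokines and chemokines, 11 were higher in SRSF3-OE, including IL1A (1.71-fold) and CSF2 (2.23-fold), and 7 in SRSF7-OE, including CCL5 (1.995-fold), or 11 and 6 with the GC trend removed. The share called in this list, 64.3%, was near the 56.5% among all genes of at least 5 CPM (31.3% higher in SRSF3-OE and 25.2% higher in SRSF7-OE).

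Interferon-stimulated genes, the antiviral program that cells switch on when interferons reach their receptors, were higher in SRSF7-OE, and the start regions of many of them carry the interferon-stimulated response element. Of 41 such genes tested, 24 were higher in SRSF7-OE and 1 in SRSF3-OE, with a median log2 difference of -0.47 (25 and 2 with the GC trend removed). The core of this element, GAAANNGAAA, was searched on both strands of the RefSeq promoters (GRCh38.p14, 250 bases before to 50 after the annotated start), matches being allowed to overlap. It was present in 11 of the 18 promoters found for those 24 genes (61.1%), in 402 of 13608 promoters of all genes tested (2.95%) and in 1255 of all 35116 promoters of the table (3.57%). A match describes letters and not a bound site. The list was drawn up of interferon-stimulated genes, many of which carry this element whatever their levels here. Its members that were not higher in SRSF7-OE were not counted apart. The shares therefore do not bear on the difference between the lines. The following 3 promoters, 2 of them of genes outside the naming rule that were picked after their values were seen, show how the matches sit, in capitals, between 95 and 130 bases before the start:
IFIT1: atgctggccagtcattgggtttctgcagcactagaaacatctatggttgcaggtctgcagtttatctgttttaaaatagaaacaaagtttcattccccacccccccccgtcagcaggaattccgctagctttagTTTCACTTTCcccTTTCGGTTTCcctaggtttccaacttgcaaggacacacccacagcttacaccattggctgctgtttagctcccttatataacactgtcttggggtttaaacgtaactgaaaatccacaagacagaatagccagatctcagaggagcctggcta
IFI27: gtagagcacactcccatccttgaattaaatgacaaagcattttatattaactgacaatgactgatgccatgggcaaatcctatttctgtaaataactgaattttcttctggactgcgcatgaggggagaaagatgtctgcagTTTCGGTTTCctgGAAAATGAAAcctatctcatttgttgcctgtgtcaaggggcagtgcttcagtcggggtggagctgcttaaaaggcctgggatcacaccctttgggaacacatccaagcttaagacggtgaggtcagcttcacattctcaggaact
BST2: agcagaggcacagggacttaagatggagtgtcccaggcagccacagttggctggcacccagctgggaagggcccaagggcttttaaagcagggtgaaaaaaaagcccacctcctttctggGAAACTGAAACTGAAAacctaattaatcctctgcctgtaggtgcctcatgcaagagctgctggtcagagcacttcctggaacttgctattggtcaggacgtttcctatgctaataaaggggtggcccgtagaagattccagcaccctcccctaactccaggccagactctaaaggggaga
The IFIT1 sequence is chr10:89392373-89392672 on the plus strand, that of IFI27 chr14:94110486-94110785 on the plus strand and that of BST2 chr19:17405581-17405880 on the minus strand, each with 2 matches, which overlap in BST2. BST2, or tetherin, which holds virus particles at the cell surface, measured 7.17, 7.25 and 7.91 CPM in SRSF3-OE and 22.8, 17.96 and 22.9 CPM in SRSF7-OE. This was the largest difference among the called interferon-stimulated genes of at least 1 CPM (2.85-fold, log2 difference -1.51, SE 0.102, edgeR adjusted p = 4.45e-06). IFIT1, which binds foreign RNA ends, measured 38.6, 37.4 and 36.3 CPM in SRSF3-OE and 54.5, 56.97 and 51.7 in SRSF7-OE (1.45-fold, edgeR adjusted p = 5.25e-05). IFI27 measured 5.23, 5.15 and 5.71 and 8.25, 7.35 and 8.22 (edgeR adjusted p = 0.000637). In 1xCtrl, IFIT1 was at 50.7 ± 5.61 CPM and IFI27 at 4.58 ± 0.765 CPM on the scale of the 12 libraries, near SRSF7-OE (54.5 ± 3.42) for IFIT1 and below both lines for IFI27. IFITM2, a membrane barrier to virus entry, was 2.48-fold higher in SRSF7-OE, with close copies in IFITM1 and IFITM3, and IRF1, a regulator of the program, 1.81-fold, with 1716 exon bases shared with IRF1-AS1 on the opposite strand. The 1 gene higher in SRSF3-OE was IRF9, by a log2 difference of 0.46 (edgeR adjusted p = 0.00385), and 1838 of its exon bases are shared with another gene on the same strand. Under 7 of the alternatives, leaving out SRSF3-OE replicate 2 or SRSF7-OE replicate 2 among them, 2 or 3 genes of the list were higher there. Antigen presentation by MHC class I, in part under the same control, had 10 of 19 genes higher in SRSF7-OE and 4 in SRSF3-OE (8 and 4 with the GC trend removed); the former number was 6 without SRSF7-OE replicate 1 and 5 with all 12 libraries in the fit. HLA-B measured 73.5, 68.7 and 71.4 CPM in SRSF3-OE and 132, 122 and 123 in SRSF7-OE, and the immunoproteasome subunit PSMB9 13.9, 13.9 and 14.3 and 25.5, 23.9 and 25.04 (edgeR adjusted p = 3.46e-06 and 6.21e-06). The peptide transporter TAP2 was higher in SRSF3-OE by 0.43 (edgeR adjusted p = 9.21e-05).

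Lipid synthesis was higher in SRSF7-OE. Of 24 cholesterol synthesis genes, 17 were higher in SRSF7-OE and 3 in SRSF3-OE, with a median of -0.31 (16 and 2 with the GC trend removed). The 3 became 1 with total counts alone, with no filter, and without SRSF3-OE replicate 1 or 3. TM7SF2, a sterol reductase, measured 13.7, 14.3 and 14.6 CPM in SRSF3-OE and 34.3, 26.7 and 35.2 in SRSF7-OE (2.26-fold, edgeR adjusted p = 2.94e-05). STARD4, a sterol carrier, measured 36.2, 33.5 and 35.1 and 62.9, 69.6 and 70.4 CPM (1.94-fold, edgeR adjusted p = 3.15e-06). Of 18 fatty acid synthesis genes, 13 were higher in SRSF7-OE and 1 in SRSF3-OE, a median of -0.47 (13 and 2 with the GC trend removed). The stearoyl-CoA desaturase SCD measured 1690.2, 1509 and 1504 CPM in SRSF3-OE and 3009, 2921 and 2679 CPM in SRSF7-OE, and the desaturase FADS2 75.3, 68.5 and 72.3 and 167, 159 and 160.2 (edgeR adjusted p = 1.76e-05 and 5.24e-07). FADS1 and the acyl-CoA synthetase ACSL1 were 1.95- and 2.07-fold higher in SRSF7-OE.

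Genes of the unfolded protein and integrated stress responses mostly shared that direction: 17 of 26 were higher in SRSF7-OE and 4 in SRSF3-OE, with a median of -0.34 (15 and 4 with the GC trend removed). DDIT4, an inhibitor of mTORC1 signalling that shares 847 exon bases with its antisense gene, measured 80.2, 76.4 and 81.4 CPM in SRSF3-OE and 213, 203 and 243 in SRSF7-OE (2.77-fold, edgeR adjusted p = 6.47e-07). ASNS, which makes asparagine, measured 27.3, 23.5 and 23.2 and 65.4, 64.4 and 61.7 (2.59-fold, edgeR adjusted p = 8.91e-07), with 1985 exon bases shared with another gene on the same strand. PHGDH, the first enzyme of serine synthesis, measured 70.4, 64.01 and 69.9 and 155, 151 and 157 (2.26-fold, edgeR adjusted p = 5.25e-07), and CHAC1, which degrades glutathione, was 2.41-fold higher in SRSF7-OE. PPP1R15A, which brings the phosphatase that ends this response, had the opposite sign, at 160.2, 147 and 161 CPM in SRSF3-OE and 66.5, 68.2 and 72.4 in SRSF7-OE (2.26-fold, edgeR adjusted p = 7.31e-07). ATF5, ATF6 and SEL1L were also higher in SRSF3-OE, by 0.37, 0.34 and 0.28 on the log2 scale. Without SRSF3-OE replicate 1, 3 genes of the list were called in that direction. Not called were 5 genes, among them DDIT3 (-0.09), HYOU1 (-0.06) and HSP90B1 (-0.18). Amino acid carriers diverged among themselves, 11 of 20 higher in SRSF3-OE and 6 in SRSF7-OE (12 and 5 with the GC trend removed). SLC7A2 and SLC7A8 were 1.94- and 1.75-fold higher in SRSF3-OE, and the glutamate carrier SLC1A3, at 23.01, 22.1 and 22.1 CPM and 82.1, 73.9 and 71.3 CPM, was 3.38-fold higher in SRSF7-OE (edgeR adjusted p = 1.76e-07). In 1xCtrl, SLC1A3 was at 26.1 ± 2.52 CPM on the scale of the 12 libraries, near SRSF3-OE (22.8 ± 0.325).

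The machinery of ribosome assembly was mostly higher in SRSF3-OE, by small amounts. Of 40 nucleolar ribosome biogenesis genes, 31 were higher in SRSF3-OE and 1 in SRSF7-OE, with a median of 0.38 (36 and 0 with the GC trend removed). UTP20, a part of the small subunit processome, measured 124, 96.5 and 108 CPM in SRSF3-OE and 65.9, 69.4 and 61.2 in SRSF7-OE (1.67-fold, edgeR adjusted p = 0.000262). POLR1B, the second subunit of RNA polymerase I, measured 106, 90.6 and 97.9 and 57.7, 62.8 and 58.8 (1.64-fold, edgeR adjusted p = 2.63e-05), and the processome proteins UTP4 and WDR43 were 1.496- and 1.49-fold higher. On the scale of the 12 libraries the control stood near SRSF7-OE for POLR1B, at 66.2 ± 4.88 CPM against 59.9 ± 3.38 in SRSF7-OE and 99.8 ± 6.57 in SRSF3-OE. The exception was NHP2, of box H/ACA particles (24.7 ± 2.38 and 30.7 ± 3.41 CPM), whose edgeR adjusted p rose from 0.0253 to 0.0791 and 0.0607 without SRSF3-OE replicates 2 and 3, and to 0.0636 without SRSF7-OE replicate 3. The ribosomal proteins themselves did not share the direction: 4 of 74 were higher in SRSF3-OE and 20 in SRSF7-OE, with a median of -0.11 (5 and 15 with the GC trend removed). Called were 32.4% of the 74, fewer than the 56.5% among all genes of at least 5 CPM. Of the latter, 31.3% were higher in SRSF3-OE and 25.2% higher in SRSF7-OE, so the 20 lay near the general share. The 4 and 20 depended on the processing: 1 and 37 were called with total counts alone, 3 and 7 with all 12 libraries in the fit, 2 and 19 with no filter and 2 and 23 with the replicate block. They were 2 and 17, 5 and 12, and 1 and 14 without SRSF3-OE replicates 1, 2 and 3, and 2 and 13, and 2 and 15, without SRSF7-OE replicates 1 and 3.

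Mitochondrial and nuclear genes of respiration went apart. Of the 13 mRNAs of the mitochondrial genome 10 were higher in SRSF3-OE and none in SRSF7-OE, a median of 0.41 (9 and 0 with the GC trend removed). MT-ATP6 measured 4813, 6050.3 and 4902 CPM in SRSF3-OE and 3786, 3566 and 3479 CPM in SRSF7-OE, the highest value being that of SRSF3-OE replicate 2 (1.46-fold, edgeR adjusted p = 0.00131). MT-ND1 differed 1.41-fold (edgeR adjusted p = 0.00262), and MT-CO1 did not pass (22036 ± 2647 and 18555 ± 561 CPM, edgeR adjusted p = 0.0659). All mitochondrial genes together took 10.2%, 12.6% and 10.4% of the counts in SRSF3-OE and 10.1%, 9.83% and 9.23% in SRSF7-OE, the lowest of the former being just above the highest of the latter. Of 74 nuclear respiratory chain genes 30 were higher in SRSF7-OE and 4 in SRSF3-OE, a median of -0.16 (29 and 6 with the GC trend removed). The 30 became 47 with total counts alone and 16 with all 12 libraries in the fit. Glycolysis and hypoxia genes had 15 of 32 higher in SRSF7-OE and 6 in SRSF3-OE (15 and 8 with the GC trend removed).

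Genes that handle mRNA itself, where called, were more often higher in SRSF3-OE than in SRSF7-OE, within narrow limits. Called were 71.4% of nonsense-mediated decay genes, 63.0% of export and polyadenylation factors and 52.8% of core spliceosome genes. Among all genes of at least 5 CPM 56.5% were called, 31.3% higher in SRSF3-OE and 25.2% higher in SRSF7-OE. All 14 nonsense-mediated decay genes were tested, and 10 were higher in SRSF3-OE and none in SRSF7-OE, with a median of 0.23 (11 and 0 with the GC trend removed). SMG8, UPF3B and CASC3 differed 1.36-, 1.303- and 1.27-fold (edgeR adjusted p = 0.000381, 0.000301 and 0.000375). SMG8, a regulator of the kinase SMG1, measured 37.3, 33.4 and 36.8 CPM in SRSF3-OE and 26.9, 27.2 and 24.8 in SRSF7-OE. Among 36 core spliceosome genes 16 were higher in SRSF3-OE and 3 in SRSF7-OE, a median of 0.11 (19 and 4 with the GC trend removed). The 3 became 1 without SRSF3-OE replicate 3, 8, against 12, with total counts alone and 5 with upper-quartile scaling. SNRNP200, the helicase that unwinds U4 from U6, measured 483, 453 and 464 CPM in SRSF3-OE and 332, 344 and 304 in SRSF7-OE (1.43-fold, edgeR adjusted p = 0.000124). PRPF3 and the helicase DHX38 were 1.48- and 1.44-fold higher in SRSF3-OE, and the Sm protein SNRPD2 1.24-fold higher in SRSF7-OE. Of 27 export and polyadenylation factors 14 were higher in SRSF3-OE and 3 in SRSF7-OE, a median of 0.20 (14 and 4 with the GC trend removed, 9 and 5 with total counts alone, 14 and 1 with all 12 libraries in the fit). NXF1, the receptor to which both SR proteins hand mRNA, measured 123, 139 and 135 CPM in SRSF3-OE and 107, 104 and 103 in SRSF7-OE (1.27-fold, edgeR adjusted p = 0.000939), and the polyadenylation factor WDR33 differed 1.36-fold.

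Among the 14 SR proteins and TRA2 factors 5 were higher in SRSF3-OE and 1, SRSF7, in SRSF7-OE. Besides SRSF3 and SRSF2 these included SRSF11, at 382, 403 and 369 CPM in SRSF3-OE and 302, 313 and 313 in SRSF7-OE, and the splicing activator TRA2B, at 337, 323 and 332 and 263, 268 and 268 (edgeR adjusted p = 0.00115 and 0.000591). SRSF6 did not pass, with a log2 difference of 0.12 (SE 0.0521, edgeR adjusted p = 0.0894). With the GC trend removed, as with total counts alone, 3 of this list were higher in SRSF7-OE, and with the former its median moved from 0.12 to 0.02. Of the 14 kinases, phosphatases and carriers of SR proteins 7 were higher in SRSF3-OE and 3 in SRSF7-OE (4 and 2 with the GC trend removed). The 7 became 4 without SRSF3-OE replicate 1 or 3, and with total counts alone the balance turned to 2 and 3. CLK1, a kinase of SR proteins, measured 135, 140.2 and 136 CPM in SRSF3-OE and 98.6, 104 and 101 in SRSF7-OE, whereas its relative CLK3 was at 32.5 ± 0.893 and 43.4 ± 2.27 CPM (edgeR adjusted p = 7.65e-05 and 0.000282). CLK3 shares 1360 exon bases with EDC3 on the opposite strand. Of 26 hnRNPs and PTBP genes 9 were higher in SRSF3-OE, HNRNPL among them (1.22-fold), and 1, PCBP1, was higher in SRSF7-OE (1.41-fold, edgeR adjusted p = 0.000333). This list had 8 and 4 with the GC trend removed and 5 and 3 with total counts alone. Called were 42.9% of the SR proteins and TRA2 factors and 38.5% of the hnRNPs and PTBP genes. Both lay below the 56.5% among genes of at least 5 CPM, and the kinases, phosphatases and carriers lay above it (71.4%).

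**Figure D4:**
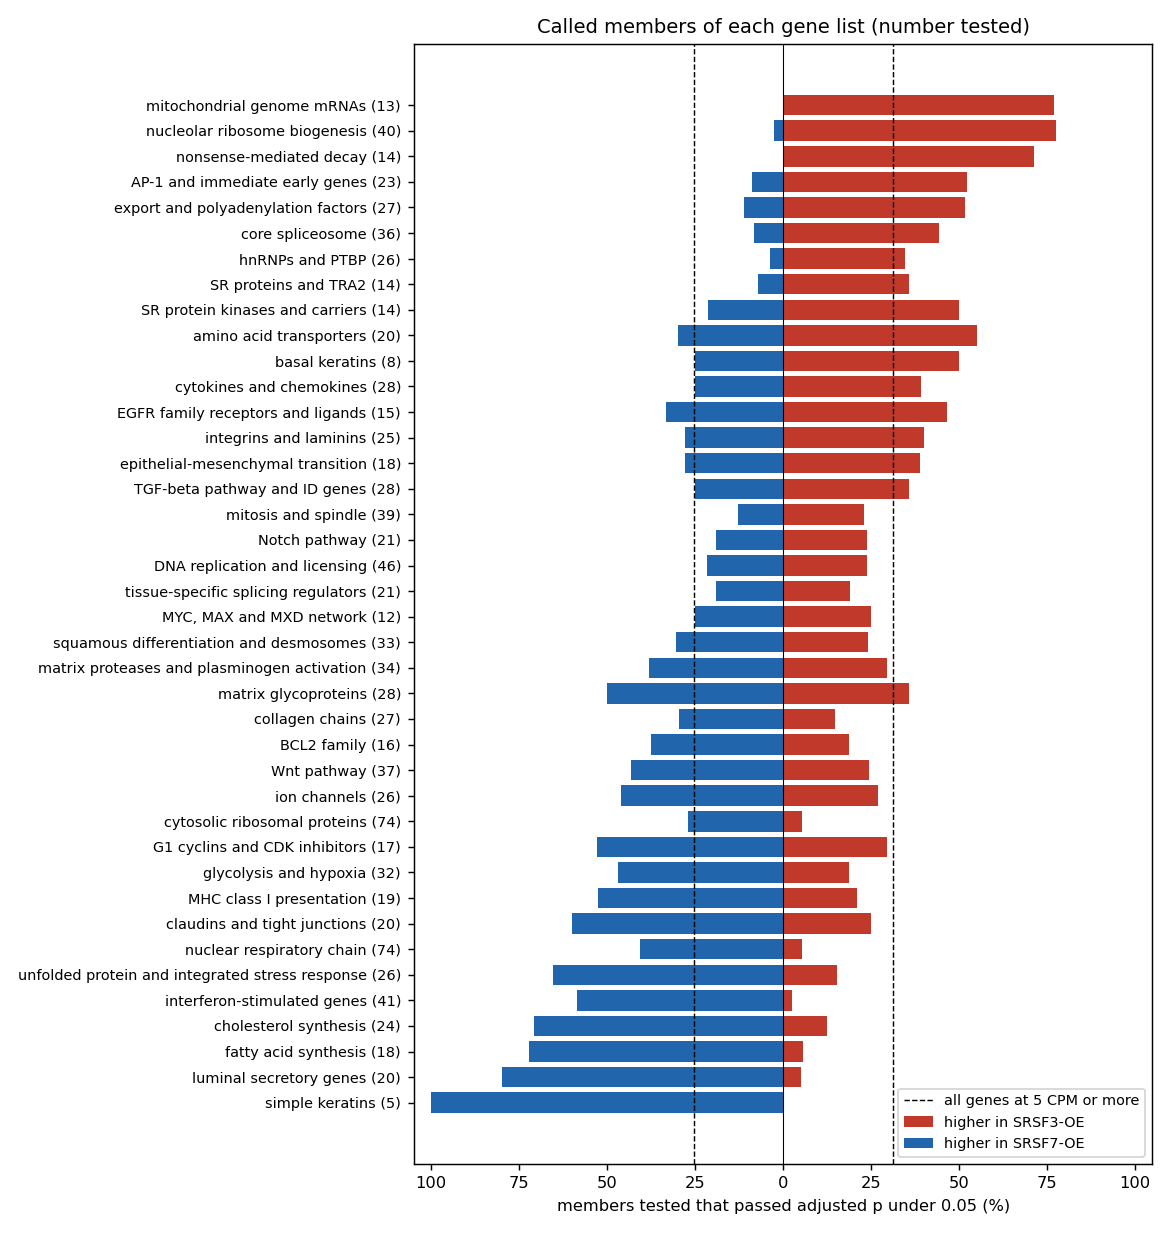
Bars give the share of the tested members of each of the 40 gene lists (number tested in brackets) with an edgeR adjusted p under 0.05, to the right for genes higher in SRSF3-OE and to the left for genes higher in SRSF7-OE; dashed lines mark the shares among genes of at least 5 CPM, 31.3% and 25.2%, while list members of any level are counted. Nucleolar biogenesis, mitochondrial mRNAs and nonsense-mediated decay stand at one end, simple keratins and luminal secretory genes at the other.

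**Figure D5:**
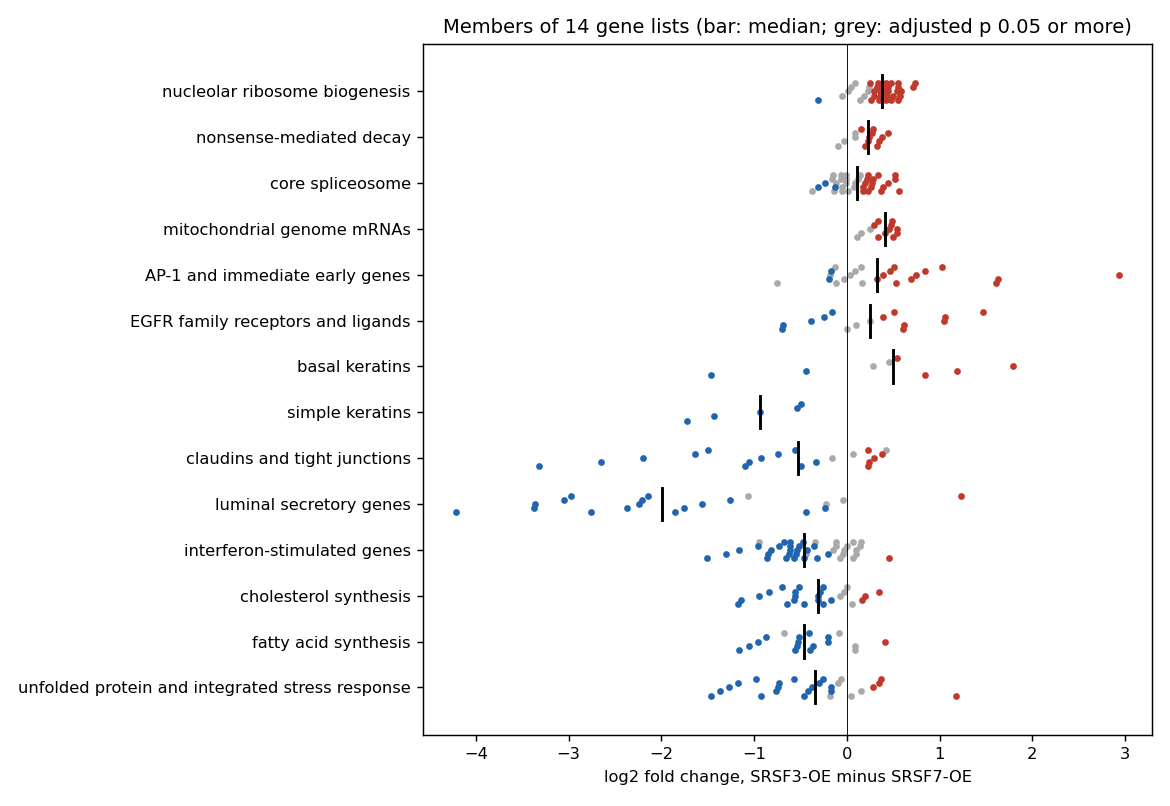
Each point is a tested member of 14 of the lists, at its log2 fold change, SRSF3-OE minus SRSF7-OE; red and blue points were called higher in SRSF3-OE and in SRSF7-OE, grey points were not called, and the bar is the list's median. The nucleolar genes lie mostly between 0 and 0.74 (median 0.38), the luminal secretory genes are spread widely (median -1.999).

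Growth control genes showed single large differences rather than a common direction. CCND2, a cyclin of the G1 phase, measured 2.28, 2.22 and 1.87 CPM in SRSF3-OE and 0.4404, 0.444 and 0.464 in SRSF7-OE (4.72-fold, edgeR adjusted p = 3.7e-06), with 989 exon bases shared with another gene on the same strand. The CDK inhibitor CDKN1A measured 45.1, 40.4 and 43.1 and 28.6, 28.2 and 28.01 (1.52-fold, edgeR adjusted p = 2.92e-05), and CDKN2C was 1.703-fold higher in SRSF7-OE. On the scale of the 12 libraries CDKN1A was at 20.8 ± 1.65 CPM in 1xCtrl, below both lines. The G1 list as a whole had 5 of 17 genes higher in SRSF3-OE and 9 in SRSF7-OE (5 and 7 with the GC trend removed). Of 46 replication genes 11 were higher in SRSF3-OE and 10 in SRSF7-OE (12 and 7 with the GC trend removed). The latter number was 6 without SRSF3-OE replicate 2 or with all 12 libraries in the fit, and the balance turned to 9 and 13 with total counts alone, 10 and 11 with upper-quartile scaling and 9 and 10 with no filter or the replicate block. Of 39 mitosis genes 9 and 5 were (12 and 6 with the GC trend removed), the former 15 without SRSF7-OE replicate 2 and the latter 3 without SRSF3-OE replicate 3 or SRSF7-OE replicate 1 or 2, or with all 12 libraries in the fit. With total counts alone the balance turned to 7 and 11. The 16 BCL2 family genes had 3 and 6 (4 and 4 with the GC trend removed). The 12 genes around MYC and MAX had 3 and 3, and under the alternatives the balance went either way by 1 or 2 genes.

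Signalling pathways of development were likewise mixed. Of 37 Wnt pathway genes 9 were higher in SRSF3-OE and 16 in SRSF7-OE, a median of -0.22 (11 and 15 with the GC trend removed). The secreted Wnt antagonist SFRP1 measured 80.01, 70.3 and 77.8 CPM in SRSF3-OE and 34.2, 33.1 and 33.1 in SRSF7-OE, while the ligand WNT10A measured 33.98, 33.1 and 34.1 and 105, 89.8 and 102 and the R-spondin receptor LGR6 was 6.404-fold higher in SRSF7-OE (edgeR adjusted p = 8.17e-07, 3.28e-07 and 7.68e-06). Of 28 TGF-beta pathway genes 10 and 7 were called in the respective directions (12 and 7 with the GC trend removed, 9 and 10 with total counts alone), GDF15 being the furthest from 0, at 2.15, 2.16 and 2.08 CPM in SRSF3-OE and 12.2, 7.97 and 15.3 in SRSF7-OE. Of 21 Notch genes 5 and 4 were called (8 and 2 with the GC trend removed). These were 6 and 7 without SRSF7-OE replicate 2, 5 and 2 without SRSF3-OE replicate 1 or 2 or with all 12 libraries in the fit, and 4 and 4 with total counts alone. Of 18 epithelial-mesenchymal transition genes 7 and 5 were (7 and 4 with the GC trend removed), the latter 3 without SRSF3-OE replicate 3 or SRSF7-OE replicate 1. Collagen chains had 4 and 8 of 27, a median of -0.19, which turned to 8 and 7 and a median of 0.14 with the GC trend removed. The 4 became 2 without SRSF3-OE replicate 1 or 3 or SRSF7-OE replicate 2 and 7 with at least 10 counts required in every library. Tissue-specific splicing regulators had 4 and 4 of 21 (6 and 5 with the GC trend removed), or 2 and 4 without SRSF7-OE replicate 1. Ion channels had 7 and 12 of 26, a balance that turned to 10 and 9 with the GC trend removed. Among the channels, the calcium-gated potassium channel KCNN4 and the osmosensitive TRPV4 were 3.82- and 2.84-fold higher in SRSF7-OE, and the chloride channel ANO1, at 256, 223 and 241 CPM in SRSF3-OE and 142, 139 and 141 in SRSF7-OE, was 1.704-fold higher in SRSF3-OE (edgeR adjusted p = 7.18e-07, 5.23e-06 and 8.31e-06).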

How the data were processed

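The data are whole-number counts per gene, deposited by the authors for 60668 versioned Ensembl identifiers and not scaled to a common total. Per the labels' protocols, DNase-treated total RNA was made into stranded polyA-selected libraries and sequenced as paired-end reads. The submitters' processing notes name Trimmomatic 0.39, STAR, StringTie 2.1.3b and GRCh38.p13, without saying what each was used for. The annotation, the strand setting and whether a read pair counts once are not given in the sources used here, so genes that share exons may exchange counts.

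Symbols matched 42005 identifiers, and 58548 were found in GENCODE release 29, which supplied positions, exon overlaps and GC content though the counting may have used another release. The 6 libraries of SRSF3-OE and SRSF7-OE were fitted alone in R 4.3.3 with edgeR 4.0.16: filterByExpr (minimum count 10, minimum total count 15), TMM scaling, a robust quasi-likelihood fit and its two-sided F test, with Benjamini-Hochberg adjustment over all genes tested and a threshold of 0.05. The standard error is the absolute log2 difference divided by the square root of F. Levels are CPM; those beside 1xCtrl or SRSF2-OE were scaled over the table's 12 libraries, and no test against the control was made. Libraries were grouped, and numbered, by their titles.

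The members, the 40 gene lists, the marker lists and the tests were chosen with earlier results of these data known, so the lists are described by counts and medians and not tested. The genes named are SRSF3, SRSF7, SRSF2 and MYC; the 15 highest and 15 lowest log2 differences among called genes with a symbol, a mean of at least 5 CPM and no overlap, and the 3 highest and 3 lowest at 1 to 5 CPM; and from each list up to 4 called genes per direction of at least 1 CPM and up to 2 not called, besides the markers. Some genes that this rule takes in are not reported here. The alternatives were RLE, upper-quartile and total-count scaling, no filter or a stricter one, DESeq2 1.42.0, limma-voom (limma 3.58.1), all 12 libraries in the fit, the replicate number as a block, thinning to the smallest library, removal of each library's GC trend (50 bins, entered as an offset) and leaving out each library. On counts simulated for the 22926 genes of this comparison with 200 genes changed 2-fold, 64.5% of these were recovered, or 99.1% of the 108 with at least 5 CPM. False calls made up 8.51%, and a simulation without any change gave 3 calls. Both were drawn without a GC trend and with far fewer changed genes than the 42.8% called here. These rates therefore need not hold for the comparison of the lines. Without molecular identifiers, reads are not independent molecules, and depth describes counting error only. Isoforms and splicing were not analysed here.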

Additional observations from a re-analysis of the deposited data

How the results depend on the processing

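The number of genes called stayed within 1.5 times the 9801 of the 6-library fit under each of the 17 alternatives, in both directions: from 8569 with all 12 libraries in the fit to 10381 with the GC trend removed, and from 8104 to 9809 when a library was left out, with 3743 to 4802 higher in SRSF3-OE and 4115 to 5007 higher in SRSF7-OE. The same replicate numbers did not pair the libraries (correlations of deviations -0.02, -0.0037 and 0.03). A fit with a replicate block called 9051 genes, 4143 higher in SRSF3-OE and 4908 higher in SRSF7-OE. SRSF3, SRSF7 and SRSF2 kept their direction and their side of the threshold in all of them. The targeted gene MYC, which was not called, changed sign with the GC trend removed (0.12) and without SRSF7-OE replicate 3 (from -0.0594 to 0.00432 over the left-out libraries), and so did COL1A1 with the GC trend removed (0.10); the cause was not tested. Of the 40 gene lists 27 kept the sign of their median under all alternatives. The 13 that did not were the hnRNPs, tissue-specific splicing regulators, collagens, matrix proteases, squamous genes, epithelial-mesenchymal transition, TGF-beta, Notch, replication, mitosis, BCL2 family, MYC network and ion channels. Depth limits genes near the floor of 3 counts, at most 0.0155 CPM in these libraries. Other limits are the 3 libraries per line, the unknown relation of replicates to cultures and the GC trend described above.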

Other observations

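Short nuclear and nucleolar RNAs, which guide splicing and the modification of ribosomal RNA, leaned toward SRSF3-OE although the libraries were polyA-selected. Of 132 snoRNA genes tested 27 were higher in SRSF3-OE and 1 in SRSF7-OE (edgeR adjusted p under 0.05), with a median log2 difference of 0.48. The 46 snRNA genes had 13 and 0, a median of 0.67, and the 22 mitochondrial tRNA genes 10 and 1, a median of 0.59. Genes annotated as sense intronic, which lie within introns of other genes, had 52 of 356 higher in SRSF3-OE and 19 in SRSF7-OE, a median of 0.26, whereas antisense genes had 111 of 1655 and 274, a median of -0.18. Protein-coding genes had 3820 of 15377 and 4295, a median of -0.04. Over all genes tested 42.8% were called, 20.0% higher in SRSF3-OE and 22.7% higher in SRSF7-OE. Fewer were called of the snoRNA (21.2%), snRNA (28.3%), sense intronic (19.9%) and antisense genes (23.3%). More were called of the mitochondrial tRNA (50%) and protein-coding genes (52.8%). The lean of the snoRNA and snRNA genes thus lies in the balance of their calls and in the medians.

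Some genes of 1 to 5 CPM were present in one line and nearly absent from the other. MIR34AHG, the host gene of the microRNA miR-34a, had 5, 0 and 0 counts in SRSF3-OE and 2106, 1798 and 2460 in SRSF7-OE. On the scale of the 12 libraries it was at 11.7 ± 0.799 CPM in 1xCtrl, and in SRSF2-OE it was at 9.0045 CPM in replicate 2 but at 0.0438 and 0.0177 CPM in replicates 1 and 3. The readthrough gene ARPIN-AP3S2, which shares 2672 of its 2673 exon bases with AP3S2 on the same strand, had 0, 2 and 0 counts in SRSF3-OE and 236, 331 and 1368 in SRSF7-OE. Its edgeR adjusted p was 0.00356, and 0.0536 without SRSF3-OE replicate 2. In 1xCtrl it ranged from 0.0210 to 4.43 CPM and in SRSF2-OE it was at 0 in all 3 libraries. The reason for such uneven levels among replicates was not tested.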
